A study of Homo sapiens with 12 samples.

Results

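The receptors described here are 10 receptor tyrosine kinases that matter in glioma: EGFR, ERBB2, PDGFRA, PDGFRB, MET, FGFR1, AXL, KIT, IGF1R and EPHA2. They were taken by gene name, and all 10 were measured among the 19775 genes with a probe set of their own. Their RNA was measured on 12 Affymetrix expression arrays in U-87 MG, an established human glioma cell line. One line held, by stable transfection, a hairpin RNA that targets p105 (shp105), and the other a hairpin used as control (shControl). NFKB1 encodes p105, which is cut to p50, a subunit of the transcription factor NF-kB. Each line received 100 uM temozolomide (TMZ), the alkylating drug of glioma treatment, or the vehicle DMSO, for 16 h. This gave 4 groups of 3 arrays: shControl with DMSO, shControl with TMZ, shp105 with DMSO and shp105 with TMZ. All groups thus share the U-87 MG background and a hairpin. The labels call the replicates biological, but give neither whether a line is 1 clone nor whether a second hairpin was used. The p-values therefore measure the spread between these arrays within 1 pair of lines.

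Receptor tyrosine kinases span the cell membrane. A ligand brings receptors together, their kinase domains phosphorylate each other, and adaptors dock there and start the RAS-ERK and PI3K-AKT pathways. Phosphatases, Sprouty proteins and the ubiquitin ligase CBL dampen the signal. In glioma EGFR is often amplified or mutated and PDGFRA is often amplified, while MET, AXL and EPHA2 are known for invasion and for resistance to treatment. Amplification and phosphorylation are not visible in these data, which hold RNA levels only.

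Values are log2 levels of 1 probe set per gene, the brightest one that carries that gene's symbol alone, so a difference of 1 is a 2-fold change. Differences were tested with limma in 1 fit of all 12 arrays, and p-values were adjusted by Benjamini-Hochberg over all 19775 genes. A gene is called when the adjusted p lies under 0.05, and all errors and intervals of differences come from that fit (standard error, SE, and 95% interval). Levels of different genes are not set against each other, because each probe set binds its RNA with its own strength.

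Array medians lay between 5.04 and 5.09, and arrays of 1 group correlated at 0.997 to 0.998 across genes. NFKB1, the targeted gene, had a mean of 7.32 (SD 0.09, n = 3) in shControl cells and 7.20 (SD 0.06) in shp105 cells with DMSO, and of 7.41 (SD 0.11) and 7.16 (SD 0.05) with TMZ. The line difference did not pass with DMSO (-0.12, adjusted p = 0.260). It passed with TMZ (-0.25, adjusted p = 0.0204), and this call was lost when either of shp105_TMZ replicates 1 and 3 or either of shControl_TMZ replicates 1 and 2 was left out (adjusted p = 0.0585 to 0.0903). Of 22 alternative settings of the processing, 16 kept the call. VIM, an intermediate filament abundant in glioma lines, stood at 14.80 in shControl cells with DMSO. Among the 9 neural and glial markers, S100B and AQP4 lay at the level of controls for absent sequences in every group, and GFAP, the astrocyte filament, lay between 5.05 and 5.21. Markers of other cell types lay at that level in every group in part: 3 of 6 for leukocytes and microglia (PTPRC, CX3CR1 and P2RY12), 1 of 5 for endothelium (CDH5), 1 of 5 for epithelium (CDH1) and 1 of 3 for mast cells (CPA3). Others lay above it, among them CD3E at 5.63 to 5.87, PECAM1 at 5.81 to 5.87, KRT8 at 5.50 to 6.30 and TPSAB1 at 5.31 to 5.42 by group mean. The hybridization spike-ins, bacterial RNAs added in the laboratory, differed with the line: with DMSO their mean level was 10.63 (SD 0.05) in the control line against 11.13 (SD 0.10) in shp105 cells, and with TMZ 10.95 (SD 0.09) against 11.32 (SD 0.13). A sign of RNA quality moved with the line as well. The 3′ minus 5′ difference of the GAPDH control probe sets was 0.221 to 0.323 on the shControl arrays and 0.330 to 0.439 on the shp105 arrays, without overlap. The same value for ACTB overlapped with DMSO (2.95 to 3.07 against 2.94 to 3.14), and with TMZ it was 2.78 to 2.94 against 3.01 to 3.15.

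The 4 receptors called between the lines, AXL, EPHA2, MET and IGF1R, are shown first by the 250 bases just before their start sites, so that the DNA in front of the genes stands beside their levels. The sequences are those of RefSeq on GRCh38.p14, 5′ to 3′ on the strand of the gene, and capitals mark the GC box GGGCGG, a motif bound by SP1-type factors.
AXL, chr19:41218973-41219222, plus strand: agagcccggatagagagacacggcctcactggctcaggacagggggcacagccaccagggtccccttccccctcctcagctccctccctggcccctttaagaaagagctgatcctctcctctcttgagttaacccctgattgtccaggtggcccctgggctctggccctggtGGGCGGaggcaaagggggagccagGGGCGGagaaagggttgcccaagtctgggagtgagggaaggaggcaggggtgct
EPHA2, chr1:16156070-16156319, minus strand: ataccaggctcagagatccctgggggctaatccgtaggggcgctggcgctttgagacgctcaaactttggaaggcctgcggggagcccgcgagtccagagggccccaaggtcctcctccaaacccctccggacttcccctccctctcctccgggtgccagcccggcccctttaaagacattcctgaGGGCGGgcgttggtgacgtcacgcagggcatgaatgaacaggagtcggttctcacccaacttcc
MET, chr7:116671946-116672195, plus strand: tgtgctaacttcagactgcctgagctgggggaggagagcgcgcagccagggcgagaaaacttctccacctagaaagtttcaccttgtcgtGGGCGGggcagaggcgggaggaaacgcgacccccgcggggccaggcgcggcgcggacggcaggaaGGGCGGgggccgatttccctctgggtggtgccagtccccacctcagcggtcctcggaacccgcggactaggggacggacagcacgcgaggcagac
IGF1R, chr15:98648289-98648538, plus strand: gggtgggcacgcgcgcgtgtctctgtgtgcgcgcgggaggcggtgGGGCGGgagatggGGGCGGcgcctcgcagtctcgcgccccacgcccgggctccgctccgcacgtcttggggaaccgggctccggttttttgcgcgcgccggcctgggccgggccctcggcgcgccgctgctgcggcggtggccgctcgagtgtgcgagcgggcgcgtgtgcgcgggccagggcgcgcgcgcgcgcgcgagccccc
The table of promoters had entries for 9 of the 10 receptors. The search covered both strands and found the GC box 2 times each in AXL, MET and IGF1R and 1 time in EPHA2, against 42.6% of all 35116 promoter windows of this length with at least 1. The GC content was 64.4% for AXL, 63.2% for EPHA2, 68.4% for MET and 81.2% for IGF1R, where the median window had 58.0%. Other receptors held the GC box as well, EGFR and PDGFRA 2 times in 1 of their windows and PDGFRB and KIT 1 time. A second AXL window of the table had none and a GC content of 54.4%. The AP-1 motif TGANTCA (6.57% of windows), the kappaB motif (5.21%) and TATAAA (10.7%) had no match in the 4 windows printed, which says only that these letters are not there. No matches of different motifs overlapped.

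Between the lines, 3 of the 10 receptors were higher in shp105 cells under DMSO, AXL, EPHA2 and MET, and 1 was lower, IGF1R. The same 4 receptors were called in the same directions under TMZ. Over all genes, 19.9% were called with DMSO and 21.1% with TMZ. By direction, 8.34% were higher and 11.6% lower with DMSO, and 10.1% were higher and 11% lower with TMZ. The arrays of both lines did not overlap for these 4 of the 10 receptors under either treatment, as for 35.9% of all genes with DMSO and 35.7% with TMZ. The other 6 receptors did not pass under either treatment. The median difference of the 10 receptors was -0.01 with DMSO and -0.04 with TMZ, against -0.01 and -0.01 over all genes.

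**Figure D1:**
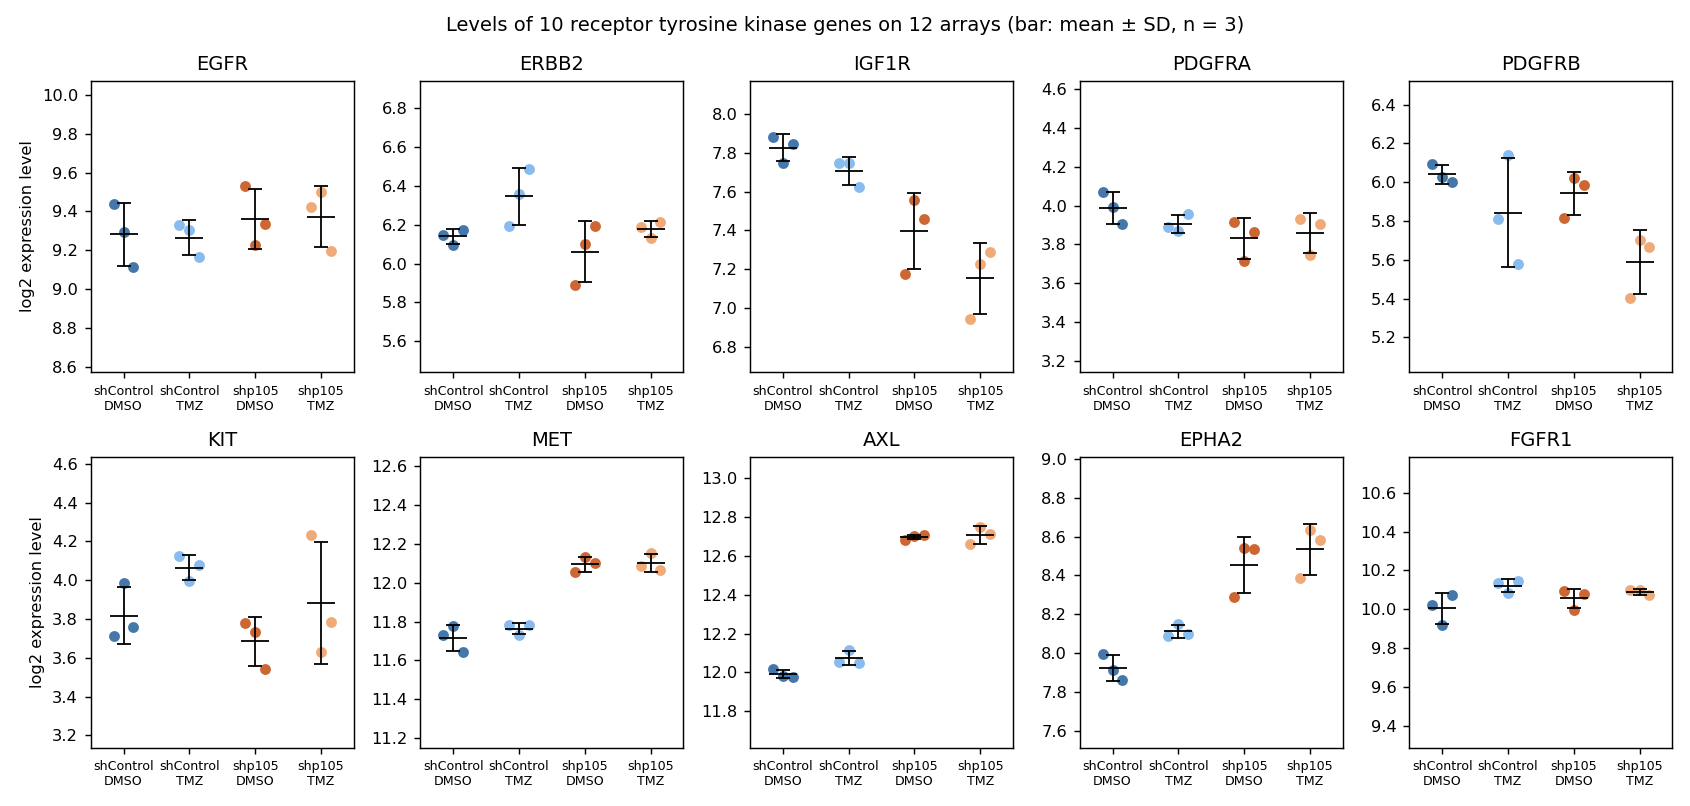
Log2 level of each of the 10 receptors on every array (points) with the mean and SD of each group of 3 (bars), 1 panel per receptor, each panel spanning the same number of log2 units around its own centre. AXL, EPHA2 and MET sit higher in both shp105 groups, IGF1R sits lower there, and the arrays of the other receptors overlap between the lines under each treatment.

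AXL encodes a receptor of the TAM family, which binds GAS6 and takes part in invasion, survival and the clearance of dying cells. Its log2 levels were 11.98, 11.98 and 12.02 in shControl cells with DMSO and 12.05, 12.05 and 12.12 with TMZ. In shp105 cells they were 12.68, 12.70 and 12.71 with DMSO and 12.66, 12.71 and 12.75 with TMZ. Every shp105 array lay above every shControl array, and the arrays within a group lay close together. The line difference was 0.71 (SE 0.05, 95% interval 0.60 to 0.81, adjusted p = 6.65e-07) with DMSO, a 1.63-fold higher level. With TMZ it was 0.64 (SE 0.05, 95% interval 0.53 to 0.74, adjusted p = 1.72e-06), or 1.55-fold. The second probe set of AXL, a dimmer one, was higher as well, by 0.44 with DMSO (adjusted p = 0.0022 over all 41097 single-symbol probe sets) and by 0.39 with TMZ (adjusted p = 0.0045).

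EPHA2 encodes a receptor for ephrin-A ligands, which are held on the surface of neighbouring cells. Its log2 levels were 7.86, 7.91 and 7.99 in shControl cells with DMSO and 8.09, 8.10 and 8.15 with TMZ. In shp105 cells they were 8.29, 8.54 and 8.54 with DMSO and 8.39, 8.58 and 8.64 with TMZ. The lowest shp105 array lay above the highest shControl array under both treatments. The difference was 0.53 (SE 0.08, 95% interval 0.35 to 0.71, adjusted p = 0.000653) with DMSO, or 1.45-fold, and 0.42 (SE 0.08, 95% interval 0.24 to 0.60, adjusted p = 0.00304) with TMZ, or 1.34-fold. EPHA2 had 1 probe set, so no second reading stood beside it.

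MET encodes the receptor for hepatocyte growth factor and drives motility and growth. Its log2 levels were 11.64, 11.73 and 11.78 in shControl cells with DMSO and 11.73, 11.78 and 11.78 with TMZ. In shp105 cells they were 12.06, 12.10 and 12.13 with DMSO and 12.07, 12.08 and 12.16 with TMZ. Again no array of one line fell into the range of the other. The difference was 0.38 (SE 0.05, 95% interval 0.27 to 0.49, adjusted p = 0.000276) with DMSO, or 1.30-fold, and 0.34 (SE 0.05, 95% interval 0.22 to 0.45, adjusted p = 0.000640) with TMZ, or 1.26-fold. The 4 probe sets of MET disagreed. The probe set 213816_s_at was higher by 0.57 with DMSO (adjusted p = 0.047 over all probe sets) and stood at 0.39 with TMZ (adjusted p = 0.17), while 211599_x_at and 213807_x_at did not pass and stood at 0.20 and 0.08 with DMSO and at -0.12 and -0.19 with TMZ. With TMZ the arrays of the lines did not overlap for 211599_x_at, lower in shp105 cells, nor for 213816_s_at, higher there. With the mean of the 4 probe sets in place of the brightest, the MET difference with TMZ was 0.10 (adjusted p = 0.253).

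IGF1R encodes the receptor for the insulin-like growth factors and signals mainly through the adaptors IRS1 and IRS2. Its log2 levels were 7.75, 7.84 and 7.88 in shControl cells with DMSO and 7.62, 7.75 and 7.75 with TMZ. In shp105 cells they were 7.18, 7.46 and 7.56 with DMSO and 6.95, 7.23 and 7.29 with TMZ. All shp105 arrays lay below all shControl arrays, and the shp105 arrays were spread more widely (SD 0.20 and 0.18, against 0.07 and 0.07). The difference was -0.43 (SE 0.11, 95% interval -0.66 to -0.19, adjusted p = 0.0137) with DMSO and -0.55 (SE 0.11, 95% interval -0.79 to -0.32, adjusted p = 0.00276) with TMZ, a 1.34-fold and a 1.47-fold lower level. The call with DMSO was lost without shp105_DMSO replicate 1 (-0.32, adjusted p = 0.0543) and without shControl_DMSO replicate 1 (-0.40, adjusted p = 0.0516). Of its 5 probe sets 1 passed. The probe set 203627_at, about as bright (mean of 7.32 against 7.52 over all arrays), did not pass. It stood at -0.08 with DMSO (adjusted p = 0.64 over all probe sets) and at -0.06 with TMZ (adjusted p = 0.72). The probe sets 208441_at and 243358_at, with means of 3.98 and 4.01, lay at the level of controls for absent sequences. With the mean of all 5, the difference with DMSO was -0.13 (adjusted p = 0.0931) and that with TMZ was -0.22 (adjusted p = 0.00860), smaller but still called.

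The spike-in level moved with the line, so the fit was repeated with it as a covariate. AXL was then still higher with DMSO and with TMZ (adjusted p = 0.00924 and 0.00278). EPHA2 stood at 0.73 and 0.57 (SE 0.20 and 0.16, adjusted p = 0.0924 and 0.0664). MET stood at 0.43 and 0.38 (SE 0.13 and 0.11, adjusted p = 0.141 and 0.0698). These errors were wider than without the covariate, while the differences were not smaller. IGF1R stood at 0.03 with DMSO, a change of sign (SE 0.22, adjusted p = 0.978), and at -0.21 with TMZ (SE 0.17, adjusted p = 0.612). With DMSO the spike-in level was 10.57 to 10.67 on shControl and 11.01 to 11.20 on shp105 arrays. With TMZ it was 10.84 to 11.01 and 11.18 to 11.43. Without overlap of the lines under either treatment, this fit separates line and spike-in level poorly. Their parts in the lost calls cannot be told apart. NFKB1, the targeted gene, stood at -0.03 with DMSO (adjusted p = 0.968) and at -0.18 with TMZ (adjusted p = 0.565), so its call with TMZ was lost too. Over all genes this fit called 523 with DMSO and 1045 with TMZ, in place of 3937 and 4166. The GAPDH 3′ minus 5′ difference also moved with the line, and its part in the receptor differences was not tested.

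**Figure D2:**
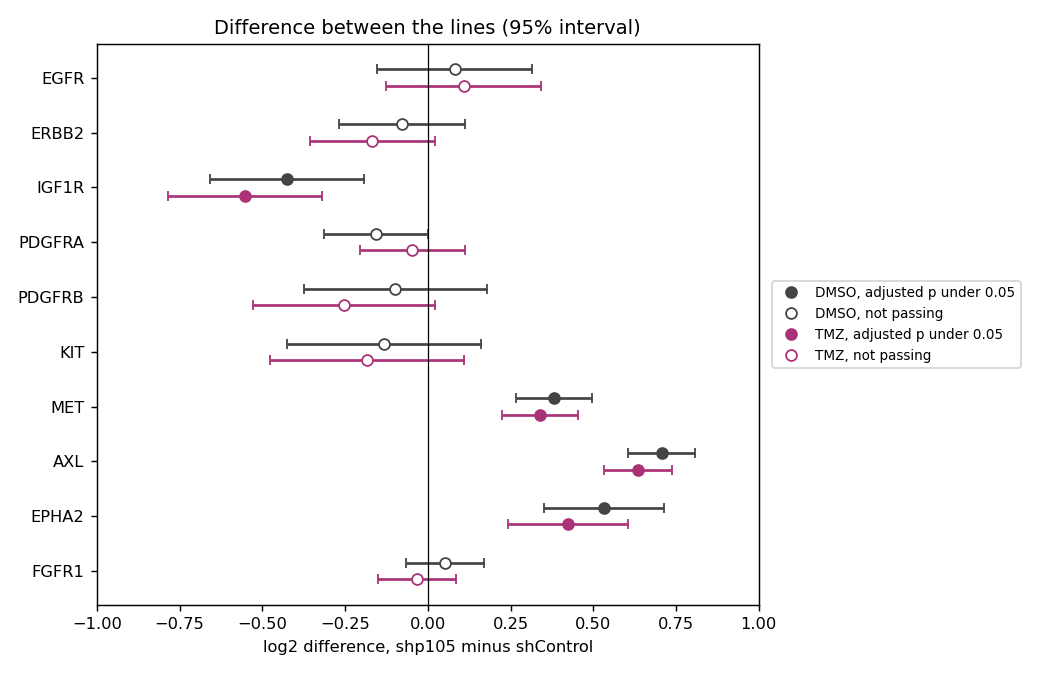
Difference between the lines, shp105 minus shControl, in log2 units with its 95% interval, for each receptor under DMSO and under TMZ; filled points passed an adjusted p of 0.05. AXL, EPHA2 and MET lie above 0 and IGF1R below 0 under both treatments, and the intervals of both treatments overlap for each receptor.

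Marker lists of other cell types and states were read beside these line differences, as sums of linear levels over the measured genes of a list. The sum of 5 mesenchymal markers ranged from 16913 to 17003 in shControl and from 13668 to 14552 in shp105 cells with DMSO. FN1 and CD44 fell, by 0.41 and by 0.25, while COL1A1 and COL1A2 rose, by 1.12 and 0.23. The sum of 5 endothelial markers ranged from 126 to 147 in shControl and from 159 to 187 in shp105 cells, with TEK the called one of them. For 5 epithelial markers it was 160 to 168 against 188 to 196, with KRT8 and KRT18 higher and EPCAM lower. For 6 leukocyte and microglial markers (166 to 179 against 166 to 178) and 3 mast cell markers (93.0 to 102 against 91.6 to 98.2) the ranges overlapped, as they did not for the 9 neural and glial markers (28445 to 29534 against 27586 to 28438), a sum made up almost wholly of VIM. Among these 9, OLIG2 rose from 4.05, a background level, to 5.27 and SLC1A3 fell from 8.33 to 7.74, while NES stood at 4.92 and 5.53 and did not pass (adjusted p = 0.0582). Of 5 pericyte markers RGS5 and ACTA2 were lower and CSPG4 and ABCC9 higher, with sums of 682 to 751 against 648 to 686. The part of these genes in the receptor differences was not tested.

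EGFR, the receptor for epidermal growth factor and the one most often amplified in glioma, did not differ beyond its spread by its brightest probe set. Its levels ran from 9.11 to 9.44 in shControl cells with DMSO, 9.16 to 9.33 with TMZ, 9.22 to 9.53 in shp105 cells with DMSO and 9.19 to 9.50 with TMZ. The 4 ranges overlap. The line difference was 0.08 (95% interval -0.15 to 0.32, adjusted p = 0.696) with DMSO and 0.11 (95% interval -0.13 to 0.34, adjusted p = 0.553) with TMZ. Its other probe sets gave a different reading. The probe set 224999_at, about as bright, was lower in shp105 cells by 0.23 with DMSO (-0.23, adjusted p = 0.022 over all probe sets), with no overlap of arrays, and stood at -0.18 with TMZ (adjusted p = 0.068). The probe set 1565484_x_at was at -0.41 with DMSO (adjusted p = 0.017) and at -0.14 with TMZ (adjusted p = 0.43). The other 7 probe sets did not pass under either treatment, so no single direction can be given for EGFR.

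ERBB2 encodes the receptor that has no ligand of its own and pairs with EGFR and ERBB3. Its levels ran from 6.10 to 6.17 and from 6.19 to 6.49 in shControl cells with DMSO and TMZ, and from 5.89 to 6.19 and 6.13 to 6.22 in shp105 cells. The lines overlapped under both treatments, and the differences were -0.08 (95% interval -0.27 to 0.11, adjusted p = 0.630) and -0.17 (95% interval -0.36 to 0.02, adjusted p = 0.212). None of the 3 probe sets of ERBB2 passed, and 210930_s_at and 234354_x_at lay at background (means of 3.46 and 3.07). The arrays of 210930_s_at did not overlap between the lines with TMZ (-0.23, adjusted p = 0.16 over all probe sets). FGFR1 encodes a fibroblast growth factor receptor, and its levels ran from 9.92 to 10.07 and 10.09 to 10.15 in shControl cells and from 10.00 to 10.09 and 10.07 to 10.10 in shp105 cells. Its line differences were among the most tightly bounded, 0.05 with DMSO (95% interval -0.07 to 0.17) and -0.03 with TMZ (95% interval -0.15 to 0.08), and none of its 7 probe sets passed in either.

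PDGFRB encodes the platelet-derived growth factor receptor typical of pericytes and stromal cells. Its levels were 6.00, 6.03 and 6.09 in shControl cells with DMSO and 5.58, 5.81 and 6.14 with TMZ. In shp105 cells they were 5.82, 5.99 and 6.02 with DMSO and 5.40, 5.67 and 5.70 with TMZ. The shControl arrays with TMZ spanned most of the range of the other groups (SD 0.28). The line difference was -0.10 with DMSO (95% interval -0.37 to 0.18, adjusted p = 0.689) and -0.25 with TMZ (95% interval -0.53 to 0.02, adjusted p = 0.194). Without shControl_TMZ replicate 3 the latter was -0.39 and passed (adjusted p = 0.0441).

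PDGFRA, the platelet-derived growth factor receptor of glial precursors, and KIT, the stem cell factor receptor, were at the level of the arrays' own negative controls. The 27 control probe sets for sequences absent from human cells ran from 2.33 to 4.30. Only AFFX-PheX-3_at among them, at 3.88 to 4.30, exceeded 3.84. Where a level above 3.84 is read as background in this text, that reading rests on this control. An example is TEK in shControl cells, at 4.26 with DMSO and 4.29 with TMZ. PDGFRA ran from 3.71 to 4.07 over all 12 arrays and KIT from 3.54 to 4.23. By the full range of the controls neither could be told from background, and no fold is given. The PDGFRA differences were -0.16 with DMSO (adjusted p = 0.173) and -0.05 with TMZ (adjusted p = 0.723), and those of KIT -0.13 (adjusted p = 0.590) and -0.18 (adjusted p = 0.399). Without shp105_TMZ replicate 1, the highest KIT array, the KIT difference with TMZ was -0.36 (adjusted p = 0.0296). The probe set 203131_at of PDGFRA was lower by 0.66 with DMSO (-0.66, adjusted p = 0.00035) and by 0.83 with TMZ (-0.83, adjusted p = 5.5e-05), yet its group means of 2.89 to 3.74 all lay in the range of the negative controls. The mean of the 4 PDGFRA probe sets passed under both treatments (-0.20, adjusted p = 0.0156, and -0.19, adjusted p = 0.0233).

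**Figure D3:**
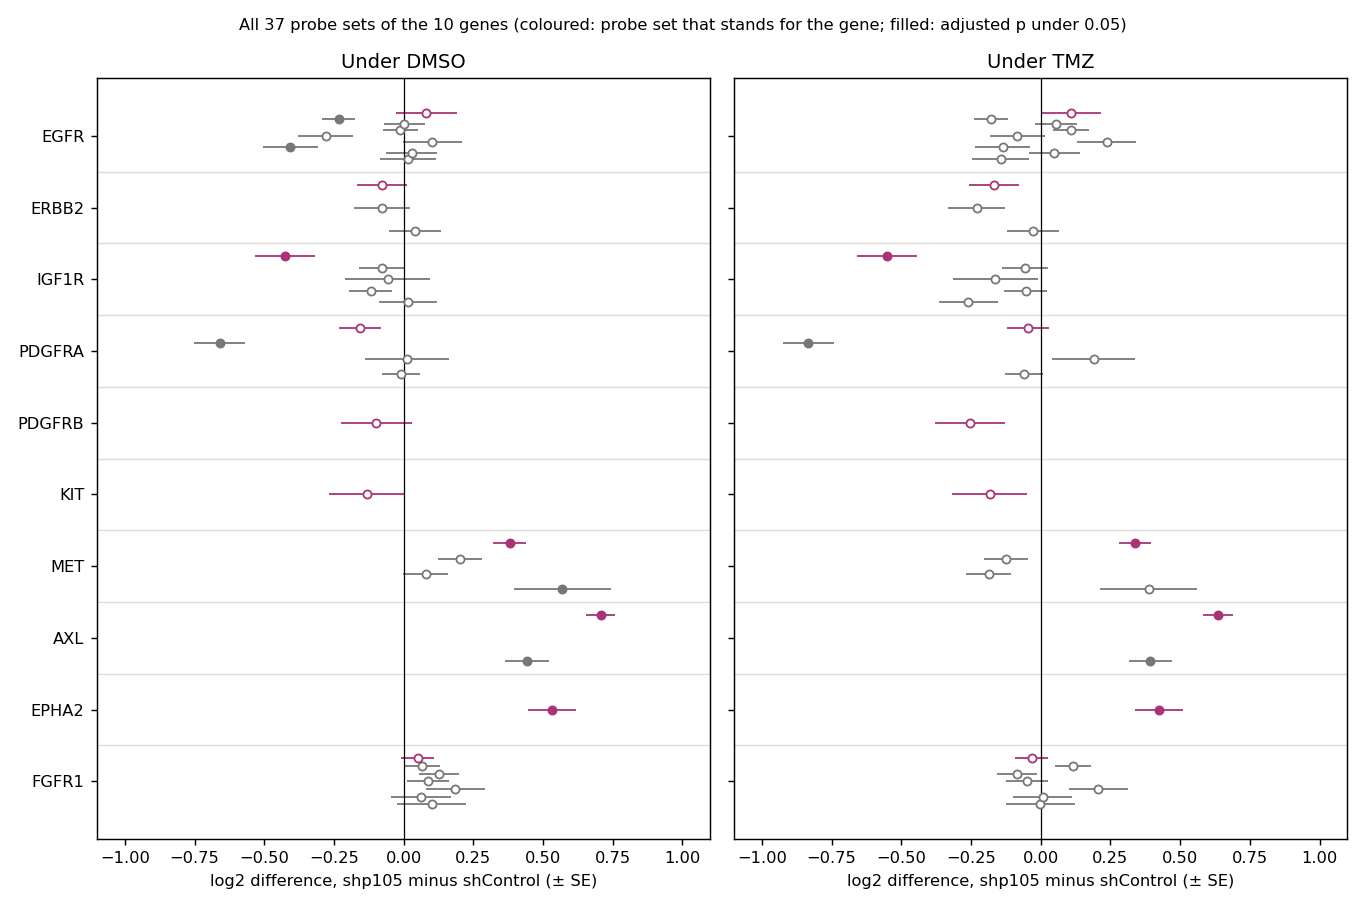
Difference between the lines, shp105 minus shControl, under DMSO and under TMZ for each of the 37 probe sets of the 10 receptors, in log2 units with its standard error (bars), coloured for the probe set that stands for the gene and filled where it passed over all probe sets. Under DMSO both probe sets of AXL, 2 of the 4 of MET and the 1 of EPHA2 passed upwards. Downwards passed 1 of 5 of IGF1R, 2 of 9 of EGFR and 1 of 4 of PDGFRA, and none of the 7 of FGFR1 passed.

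None of the 10 receptors passed the test for TMZ in either line. In shControl cells 0 of 10 were called, where 0.369% of all genes were, and in shp105 cells 0 of 10, where 0.865% of all genes were. At an unadjusted p under 0.05 there were 2 receptors in each line, ERBB2 and EPHA2 in shControl cells and PDGFRB and IGF1R in shp105 cells, against 11% and 16.3% of all genes. No other setting tried called a receptor for TMZ in either line. The smallest adjusted p of a receptor was 0.406 in shControl cells and 0.198 in shp105 cells. The median response of the 10 receptors was 0.06 and 0.02, against 0.00 and 0.01 over all genes.

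In shControl cells the arrays with TMZ lay above all arrays with DMSO for 5 receptors, ERBB2, FGFR1, AXL, KIT and EPHA2. Separation in either direction was seen in 20.3% of all genes. EPHA2 stood at 0.19 (95% interval 0.01 to 0.37, adjusted p = 0.423) and ERBB2 at 0.21 (95% interval 0.02 to 0.40, adjusted p = 0.406). AXL stood at 0.08 (95% interval -0.02 to 0.18, adjusted p = 0.561), FGFR1 at 0.12 (adjusted p = 0.454) and KIT, at background, at 0.25 (adjusted p = 0.534). In shp105 cells 1 receptor was separated, PDGFRB, which stood at -0.35 (95% interval -0.63 to -0.08, adjusted p = 0.198), where 20.4% of all genes were separated. IGF1R stood at -0.25 (95% interval -0.48 to -0.01, adjusted p = 0.282) in shp105 cells, with overlapping arrays. AXL and MET were the most closely bounded there, both at 0.01, and the AXL interval ran from -0.09 to 0.11. None of the 37 probe sets passed for TMZ in either line. In shControl cells 210973_s_at of FGFR1 stood at 0.31 (adjusted p = 0.18 over all probe sets). For MET, 211599_x_at stood at 0.32 (adjusted p = 0.21) and 213807_x_at at 0.26 (adjusted p = 0.33). For each of these the arrays with TMZ lay above all arrays with DMSO. The other probe sets of MET and FGFR1 stood between -0.24 and 0.18 in shControl cells.

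**Figure D4:**
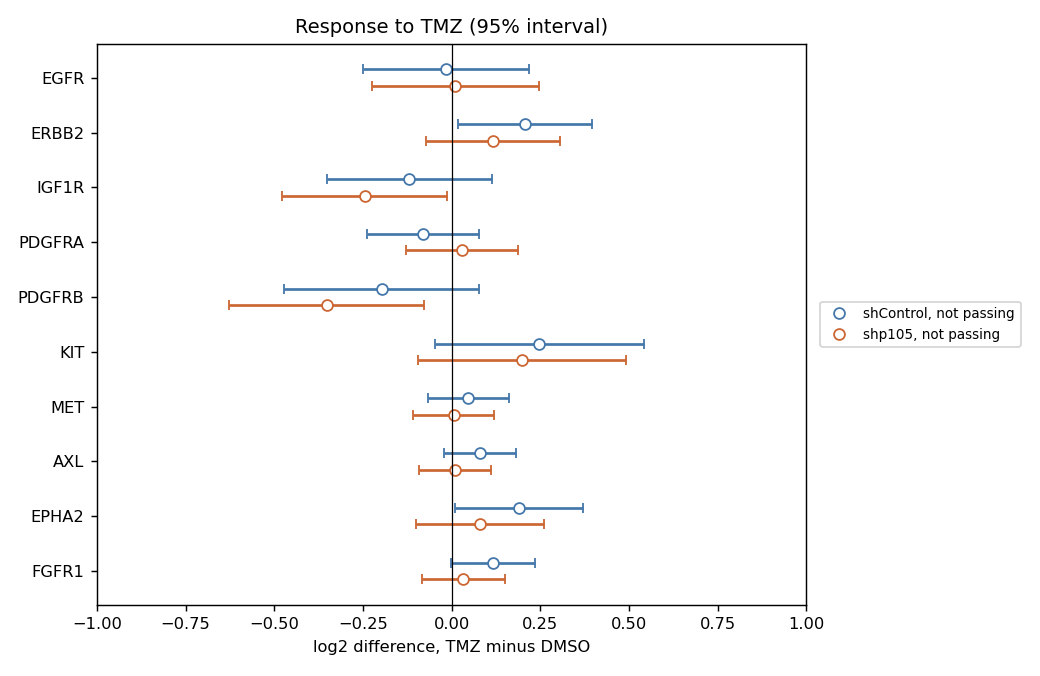
Response to TMZ, TMZ minus DMSO, in log2 units with its 95% interval, for each receptor in shControl and shp105 cells. None of the 20 responses, each by the brightest probe set of its receptor, passed an adjusted p of 0.05, and they lie between -0.35 and 0.25.

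Whether the lines differed in their TMZ response was tested as the difference of both responses. No receptor was called, and 0% of all genes were (0 of 19775, with 1266 genes, or 6.4%, and 0 receptors at an unadjusted p under 0.05). With eBayes trend and robust fitting 12 genes were called, and with dim genes left out 8. The receptor differences ran from -0.16 to 0.11, with adjusted p from 0.902 to 0.990. These values are of the brightest probe sets. The dimmer MET probe sets 211599_x_at and 213807_x_at stood at -0.33 and -0.27 (unadjusted p = 0.012 and 0.036, adjusted p = 0.85 and 0.90 over all probe sets). Both line comparisons and both TMZ comparisons share arrays with each other, so their values are given side by side and not as separate evidence.

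The order of the 4 groups followed the line for the 4 called receptors, and also for EGFR and PDGFRA, which were not called. For AXL the means were 12.71 in shp105 cells with TMZ, 12.70 with DMSO, 12.07 in shControl cells with TMZ and 11.99 with DMSO. EPHA2 and MET had the same order, and IGF1R ran from 7.83 in shControl cells with DMSO down to 7.15 in shp105 cells with TMZ. Within a line the neighbours of this order were not called apart. The range of the group means was 0.72 for AXL, 0.67 for IGF1R, 0.61 for EPHA2 and 0.39 for MET, and 0.11 for EGFR, the smallest of the 10.

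Other genes were compared by their pattern with the 3 receptors of the widest range, by Pearson's r over the 12 arrays, as a description without a p. These arrays come from 4 groups, so a gene that differs between the lines in the same direction, with little spread otherwise, can score high. The genes closest to AXL were TGFBI (0.997), a matrix protein induced by TGF-beta, TSPAN4 (0.997) and CFI (0.996), and 425 genes reached 0.95. Closest to IGF1R were LSM6 (0.975), CLPTM1L (0.959) and SPRED2 (0.958), the last an inhibitor of RAS-ERK signalling, and 10 genes reached 0.95. Closest to EPHA2 were KIF20A (0.975), a kinesin of cell division, POR (0.966) and MRC2 (0.961), and 18 genes reached 0.95.

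Of 27 ligands listed for these receptors 24 were measured. The list includes NRG1, although it binds ERBB3 and ERBB4, which are not among the 10 receptors. With DMSO 4 were higher and 6 lower in shp105 cells and 14 did not pass, with a median of -0.05. With TMZ 4 were higher and 7 lower. Beside this and the 4 lists below stand 19.9% of all genes called with DMSO and 21.1% with TMZ. The lists were chosen with earlier results of these data known, so their counts are a description only. EREG, the EGFR ligand epiregulin, was the ligand with the widest difference: its mean fell from 9.63 in shControl to 8.24 in shp105 cells with DMSO and from 9.40 to 7.81 with TMZ (-1.39, SE 0.10, adjusted p = 1.01e-06, and -1.59, adjusted p = 3.49e-07). NRG1, the neuregulin that binds ERBB3 and ERBB4, was lower by 0.67 (-0.67, adjusted p = 7.24e-05) and 0.81 (-0.81, adjusted p = 1.56e-05). BTC was called lower too (-0.51 and -0.79), though its means of 3.20 to 3.99 lay in the range of the negative controls.

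The ligands of the 4 called receptors did not move as 1 group. HGF, the ligand of MET, stood at 7.35 in shControl and 6.88 in shp105 cells with DMSO (-0.47, adjusted p = 0.0364), and at 7.21 and 6.75 with TMZ (-0.45, adjusted p = 0.0407). The HGF call with DMSO was lost when any 1 array of the compared groups was left out (adjusted p = 0.0598 to 0.108), and the call with TMZ in 10 of 12 such fits. EFNA1, a ligand of EPHA2, was higher by 0.45 (adjusted p = 0.0227) with DMSO and 0.64 (adjusted p = 0.00255) with TMZ. The EFNA1 call with DMSO was lost without shp105_DMSO replicate 1 (0.45, adjusted p = 0.0619) and without replicate 2 (0.42, adjusted p = 0.0723). GAS6, the ligand of AXL, was lower by 0.27 (-0.27, adjusted p = 0.00173) and 0.32 (-0.32, adjusted p = 0.000551), and was named after its values were seen. IGF1 did not pass with either treatment (0.12 and -0.09, adjusted p = 0.453 and 0.550).

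**Figure D5:**
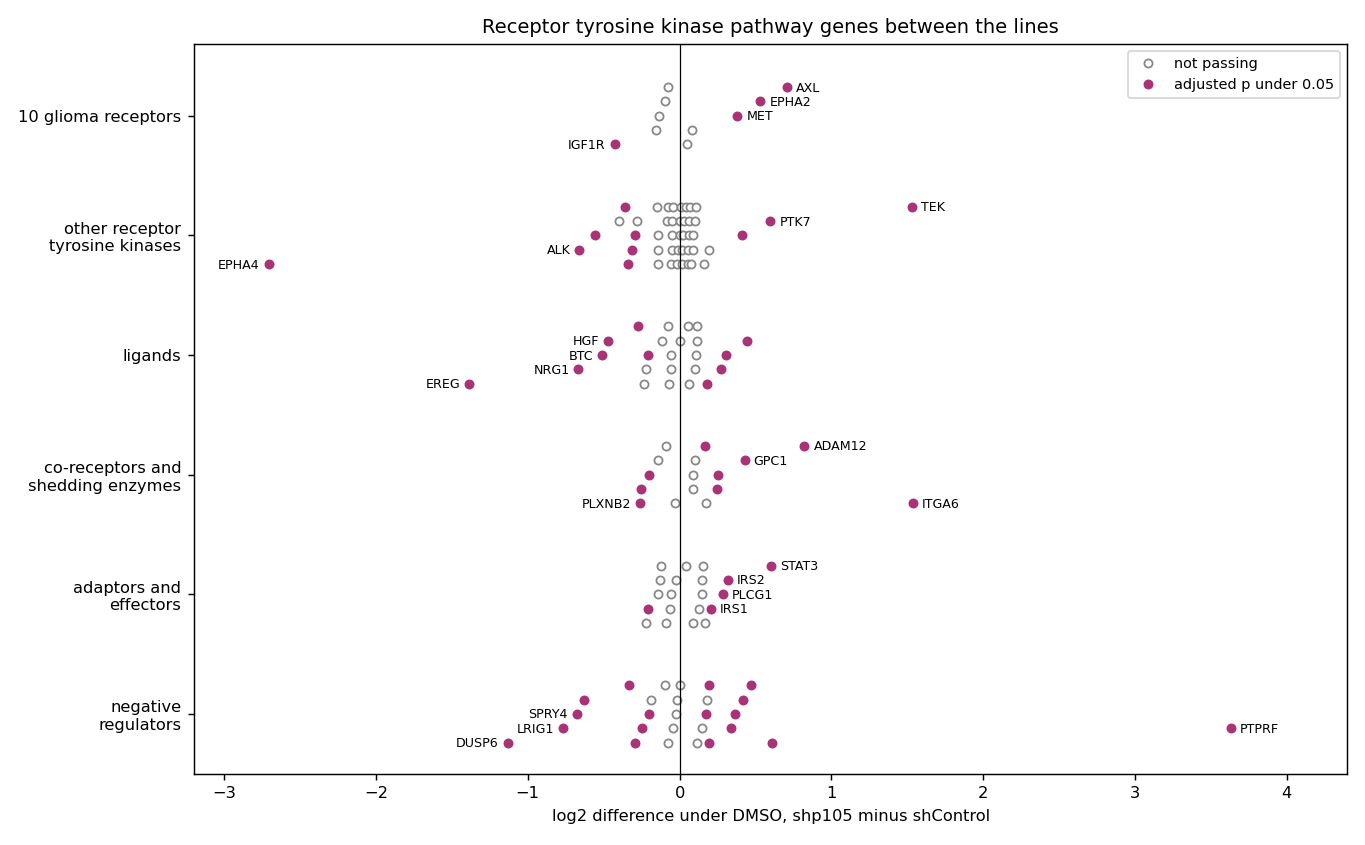
Difference between the lines under DMSO, in log2 units, for every measured gene of the 10 receptors and of 5 lists of the receptor pathway, 1 point per gene, filled where the adjusted p was under 0.05. Up to 4 called genes per list are named, and PTPRF at 3.63 and EPHA4 at -2.71 lie farthest out.

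Among 45 other receptor tyrosine kinases 3 were higher and 7 lower in shp105 cells with DMSO, and 4 were higher and 5 lower with TMZ. The shares of all genes called were 19.9% and 21.1%. EPHA4, an ephrin receptor related to EPHA2, fell from 6.24 to 3.53 with DMSO and from 6.32 to 3.64 with TMZ (-2.71, SE 0.10, adjusted p = 6.53e-09, and -2.68, adjusted p = 7.2e-09), and both shp105 means lay in the range of the negative controls. Where 1 or both groups of a gene lie in that range, here and below, the size of the difference is not well measured. TEK, the angiopoietin receptor of endothelium, rose from that range, 4.26 to 5.79 with DMSO (1.53, adjusted p = 9.48e-07) and 4.29 to 5.83 with TMZ (1.54, adjusted p = 9.95e-07). ALK was lower (-0.66 and -0.62), and PTK7, a catalytically inactive receptor of Wnt signalling, was higher (0.60 and 0.84). Nearest relatives of the called receptors were looked up after the values were seen. TYRO3, a TAM receptor like AXL, was lower by 0.31 (-0.31, adjusted p = 0.00420) and 0.23 (-0.23, adjusted p = 0.0226), while MERTK, the other TAM receptor, lay at background. INSR, the insulin receptor and closest relative of IGF1R, was higher by 0.41 (adjusted p = 0.00251) and 0.38 (adjusted p = 0.00418).

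Of 30 adaptors and effectors 20 were measured, of which 4 were higher and 1 lower with DMSO and 4 higher and 0 lower with TMZ. Among all genes 19.9% and 21.1% were called. STAT3, a transcription factor phosphorylated below several of these receptors, rose by 0.60 (SE 0.04, adjusted p = 1.78e-06) and 0.52 (adjusted p = 6.14e-06). IRS2, an adaptor of IGF1R and INSR, rose by 0.32 (adjusted p = 0.00149) and 0.57 (adjusted p = 1.8e-05), and IRS1 by 0.21 with DMSO (adjusted p = 0.00987). PLCG1, the phospholipase recruited to many receptors, rose by 0.29 with DMSO (adjusted p = 0.0155) and 0.36 with TMZ (adjusted p = 0.0042). The PLCG1 call with DMSO was lost without shp105_DMSO replicate 1 or 2 or shControl_DMSO replicate 1 or 2 (adjusted p = 0.052 to 0.0596).

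Negative regulators moved both ways: of 27 measured, 9 were higher and 8 lower with DMSO, and 8 higher and 7 lower with TMZ. For all genes the called share was 19.9% with DMSO and 21.1% with TMZ. DUSP6, the ERK phosphatase, fell from 10.41 to 9.27 with DMSO and from 10.17 to 8.92 with TMZ (-1.13, SE 0.07, adjusted p = 4.8e-07, and -1.26, adjusted p = 2.01e-07). SPRY4, a Sprouty inhibitor, fell by 0.68 (-0.68, adjusted p = 9.44e-06) and 0.73 (-0.73, adjusted p = 5.01e-06). LRIG1, a membrane protein that promotes the breakdown of EGFR and MET, was lower by 0.77 (-0.77, adjusted p = 8.94e-06) and 0.64 (-0.64, adjusted p = 3.89e-05), though with TMZ the mean of its probe sets was -0.05 (adjusted p = 0.560). PTPRF, a receptor phosphatase, rose from 4.08, a background level, to 7.71 with DMSO (3.63, SE 0.25, adjusted p = 9.12e-07) and from 4.82 to 7.69 with TMZ (2.87, adjusted p = 6.99e-06). IGFBP3, which binds the ligands of IGF1R outside the cell, rose by 0.74 with TMZ (adjusted p = 4.2e-05) and by 0.47 with DMSO (adjusted p = 0.00133).

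Of 16 co-receptors and shedding enzymes 6 were higher and 3 lower with DMSO, and 5 higher and 3 lower with TMZ. Calls over all genes came to 19.9% and 21.1%. ADAM12, a membrane protease that sheds EGFR ligands, rose by 0.82 (SE 0.06, adjusted p = 2.77e-06) and 0.97 (adjusted p = 7.13e-07), and the proteoglycan GPC1, which helps growth factors bind, by 0.43 (adjusted p = 0.00119) and 0.35 (adjusted p = 0.0046). ITGA6, an integrin that binds laminin, rose from background means of 3.57 and 3.76 to 5.11 and 4.72 (1.54, adjusted p = 0.000134, and 0.95, adjusted p = 0.00393). Among the lower genes, PLXNB2 fell from 8.84 in shControl to 8.58 in shp105 cells with DMSO, called in 15 of 22 alternative settings. CD44 fell from 12.95 to 12.63 with TMZ, called in 21 of 22. With the spike-in mean added to the fit, 13 of the 51 genes of these 5 lists called with DMSO were still called, and 20 of the 47 called with TMZ.

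For TMZ against DMSO the lists gave few calls, where 0.369% of all genes were called in shControl and 0.865% in shp105 cells. In shControl cells 1 of 24 ligands rose, TGFA, an EGFR ligand, from 8.52 to 8.88 (0.36, SE 0.06, adjusted p = 0.0257), and 1 of 16 co-receptors, PLXNB2, a plexin, from 8.84 to 9.43 (0.59, SE 0.07, adjusted p = 0.00613). The TGFA call was lost without any 1 of the 3 shControl_DMSO arrays and without shControl_TMZ replicate 2 or 3 (adjusted p = 0.0880 to 0.129). In shp105 cells PLXNB2 rose by 0.61 (adjusted p = 0.0033), SPRY2 fell from 11.87 to 11.51 (-0.37, adjusted p = 0.00924) and NRP1, a co-receptor of VEGF, fell from 9.58 to 9.18 (-0.40, adjusted p = 0.00997). With the mean of their probe sets PLXNB2 (adjusted p = 0.220 in shControl and 0.394 in shp105 cells) and NRP1 (adjusted p = 0.606) did not pass. DUSP6 (-0.36, adjusted p = 0.0461) and IRS1 (-0.24, adjusted p = 0.0479) were called in shp105 cells, and were called in 5 and 4 of 22 settings. Leaving out any 1 array ended the IRS1 call (adjusted p = 0.0664 to 0.136), and 10 of 12 such fits ended that of DUSP6 (up to 0.152). None of the other receptor tyrosine kinases was called for TMZ, and those with the smallest p were KDR in shControl cells (-0.34, adjusted p = 0.119) and DDR2 in shp105 cells (0.23, adjusted p = 0.0596). The spike-in level was also higher with TMZ, and with it as covariate none of these calls held: the adjusted p was 0.818 for TGFA and 0.480 for PLXNB2 in shControl cells, and in shp105 cells 0.0703 for PLXNB2, 0.121 for SPRY2, 0.163 for NRP1, 0.326 for DUSP6 and 0.348 for IRS1. No gene of the 5 lists was called for the difference of both responses, where SPRY2 stood at -0.37 (adjusted p = 0.360).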

How the data were processed

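Total RNA levels were deposited as log2 values per probe set, 54675 probe sets on each of 12 arrays, made with RMA and Affymetrix Power Tools per the submitters' processing notes. For versions, the genome build and the probe annotation release, nothing is given in the sources used here. RMA fits arrays jointly and compresses low signals, so differences of dim genes can be understated. Of the probe sets, 41097 had 1 gene symbol by a platform annotation updated through RefSeq (54 kept the older symbol), 1801 had several and 11777 none. The brightest single-symbol probe set stood for each of 19775 genes, with no filter on dim genes. Group means were fitted with limma 3.58.1 (lmFit, contrasts.fit, eBayes) in R 4.3.3 (package data.table, release 1.17.8), over 4 groups and 5 two-sided contrasts, with Benjamini-Hochberg adjustment. The number of arrays limits the precision. The fit was tested on simulated data. Same-numbered arrays of different groups deviated together at r = -0.14 to 0.12, and different-numbered ones at -0.20 to 0.26. These deviations did not show that replicate numbers pair samples, and with 3 arrays per group they cannot exclude it. The receptors and gene lists were chosen with earlier results of these data known. Named per list and comparison were up to 4 called genes with the widest differences, or else the gene with the smallest p, besides all receptors and NFKB1. Alternatives were other gene summaries, filters and scalings, array weights, trend and robust fitting, fewer groups, a replicate block, the spike-in level as a covariate, and each array left out. Plots used Python 3.11.15 and matplotlib 3.10.9.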

Additional observations from a re-analysis of the deposited data

How the results depend on the processing

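Over all alternatives 1056 of 1070 receptor results kept their side of the threshold, 40 of them uncalled ones that changed sign. Most of the 1070 came from results that were not called to begin with. No receptor was called for TMZ in either line, or for the difference of both responses, under any alternative. AXL was called between the lines in 22 of 22 settings under both treatments. With DMSO EPHA2 and MET were called in 21 of 22 and IGF1R in 18. With TMZ EPHA2 and IGF1R were called in 21 of 22 and MET in 20. With the spike-in covariate 1 receptor was called with DMSO and 1 with TMZ, AXL in both, and IGF1R with DMSO turned from -0.43 to 0.030. Leaving out 1 array gave 3 to 4 called receptors with DMSO and 4 to 5 with TMZ. Genes called between the lines were 19.9% with DMSO and 21.1% with TMZ, 2.64% and 5.28% with the spike-in covariate, and 15.4% to 21.1% and 16.3% to 20.5% with 1 array left out. With the replicate block the counts were 3677 and 3885 genes, against 3937 and 4166. Genes called for TMZ were 0.369% in shControl and 0.865% in shp105 cells. In shControl cells the share was 0.228% with the mean of probe sets and 0.217% with median centring. For shControl and shp105 cells in turn it was 0.187% and 0.339% over all probe sets, 2.94% and 9.14% with dim genes left out, 0.753% and 0.531% with array weights, 1.81% and 4.74% with trend and robust fitting, 0.0961% and 0.0101% with the compared groups alone, 0.152% and 0.425% with the replicate block, and 0% and 0.0657% with the spike-in covariate. With 1 array left out it was 0.0809% to 0.384% and 0.248% to 0.951%. The difference of responses gave 0%, but 0.0809% with dim genes left out and 0.0607% with trend and robust fitting. The cause of these changes was not tested, beyond fewer arrays or fewer genes tested where arrays or dim genes were left out. The block changed no call of a receptor, and whether the replicate numbers pair samples is not known. The median difference of all genes stayed within 0.0285 of 0 under every alternative. A fit of the compared groups alone was not run for the difference of responses, which needs all 4. The filter on dim genes leaves out ERBB2, PDGFRA, PDGFRB and KIT.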
